A study of Mus musculus with 4 samples.

Results

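Plasmacytoid dendritic cells (pDCs) were present as a small population among cells sorted from B16 melanomas. They were selected on measured values: among cells with 600 or more genes detected and a mitochondrial share below 30% of unique molecular identifiers (UMIs, counted RNA molecules), a cell belonged to the gate when it held at least 2 UMIs of Siglech, which encodes the pDC lectin Siglec-H, and 0 UMIs of Cd3e, a chain of the T cell receptor complex. The gate held 249 of 20170 cells: 146 of 10224 in the WT library and 103 of 9946 in the VISTA-KO library. They were described against 9738 WT and 9586 VISTA-KO T cells, defined by at least 1 Cd3e UMI and 0 Siglech UMIs.

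The study asked how loss of the inhibitory checkpoint VISTA (gene Vsir) from T cells altered the immune response to melanoma under CTLA-4 blockade. WT mice carried the floxed allele without Cre (Vsir fl/fl), and VISTA-KO littermates carried Vsir fl/fl with CD4-cre, a Cre driven by Cd4 regulatory sequence. Both were on a C57BL/6 background. The methods give 6 to 8 weeks of age for C57BL/6 mice inoculated with tumors, and call the mutants and their WT littermates age-matched. All mice bore B16 tumors and all received the same treatment, a TRP2 peptide vaccine with the Toll-like receptor agonists CpG and R848 on day 3 and 100 µg of anti-CTLA-4 antibody on days 4 and 8. Tumor-infiltrating cells were taken on day 18 after treatment, enriched and sorted for CD4+ and CD8+ cells, and pooled over 5 to 6 mice per genotype by the methods or 6 to 8 tumors by the figure legend. Each genotype gave 1 gene expression and 1 receptor library, so no difference between genotypes had a replicate check, no test between genotypes was possible, and the intervals below cover counting error only.

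pDCs are dendritic cells specialised in sensing viral nucleic acids through endosomal Toll-like receptors and in secreting type I interferon. Their identity rests on the E protein TCF4, which opposes the inhibitor Id2, together with the factors Spi-B, BCL11A, Runx2 and IRF8. Mouse pDCs can carry CD4 and CD8 alpha on the surface and transcribe some genes shared with B cells, and in tumors they have been described in interferon-producing and in tolerogenic states.

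Most gate cells held many Siglech UMIs, and few cells lay near the threshold, as the plot of Siglech against Cd3e UMIs shows. The median gate cell held 20 Siglech UMIs in WT and 17 in VISTA-KO, with ranges of 2 to 45 and 3 to 40. Just inside the threshold lay 1 WT cell with 2 UMIs, and just outside it lay 2 WT and 3 VISTA-KO cells with 1 UMI and no Cd3e. A further 75 WT and 35 VISTA-KO cells held at least 2 Siglech UMIs with Cd3e. The median depth of these double-positive cells was 16001 UMIs in WT and 14091 in VISTA-KO, compared with 8300.5 and 8712 for gate cells, and they stayed outside both groups. A productive T cell receptor contig was found in 53.3% of the WT ones (95% exact binomial interval 41.4% to 65.0%) and in 77.1% of the VISTA-KO ones (59.9% to 89.6%).

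**Figure D1:**
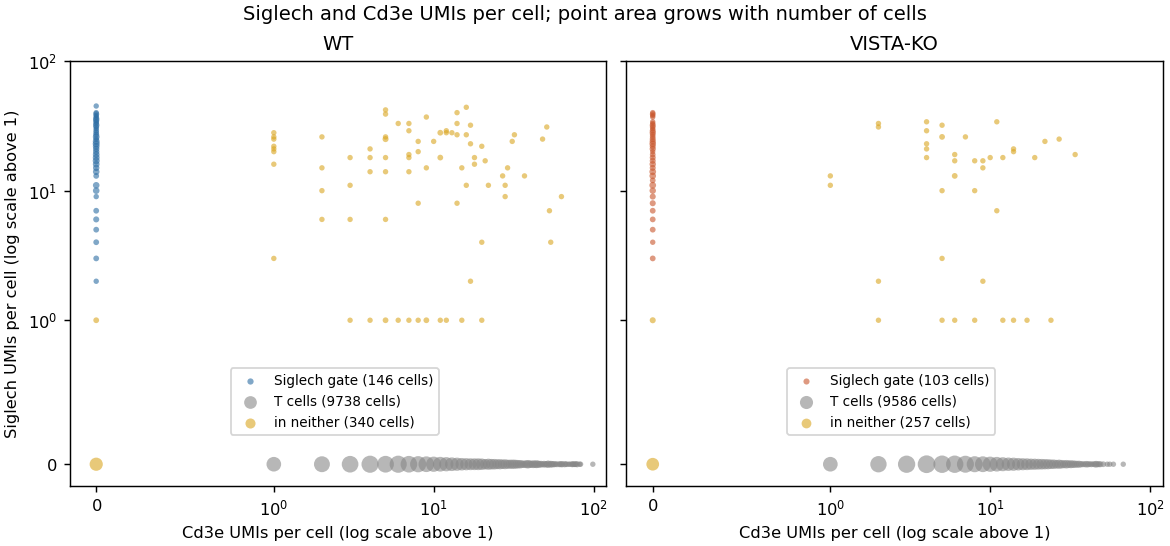
Siglech UMIs (vertical axis) against Cd3e UMIs (horizontal axis) per cell in the WT and VISTA-KO libraries, both on a log scale above 1, with point area growing with the number of cells at that position. The 146 WT and 103 VISTA-KO gate cells stand on the left edge, the T cells along the bottom, and cells with both transcripts in the upper right.

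In WT, gate cells were 1.43% of all cells (95% exact binomial interval 1.21% to 1.68%), and in VISTA-KO 1.04% (0.846% to 1.25%). The ratio of these shares was 0.725 (counting interval 0.558 to 0.940). Both shares came from cells sorted for CD4 and CD8, so they describe the sorted suspension and not the tumor, and the part of the sort in the difference was not tested. Gate libraries summed to 1201259 UMIs in WT and 922384 UMIs in VISTA-KO, and T cell libraries to 68317891 and 57331751 UMIs. The median gate cell expressed 2827.5 genes in WT and 2891 in VISTA-KO, above the 1921 and 1888 genes of the median T cell. The libraries shared 145 cell barcodes, and no barcode was in both gates.

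The label held against its markers. Ly6d, a surface protein of lymphoid progenitors and pDCs, was found in 90.4% of WT and 91.3% of VISTA-KO gate cells, and Ccr9, the receptor for the gut and thymus chemokine CCL25, in 97.3% and 98.1%. After each cell was thinned to 2000 UMIs the shares were 82.9% (75.8% to 88.6%) and 82.4% (73.6% to 89.2%) for Ly6d, and 77.4% (69.7% to 83.9%) and 81.4% (72.4% to 88.4%) for Ccr9. Ccr9 is also known from thymocytes and gut-homing T cells. The same thinned shares in the tumor T cells were 0.076% and 0.0765% for Ly6d and 0.217% and 0.306% for Ccr9. Both markers occurred together in 129 of 146 WT and 93 of 103 VISTA-KO gate cells, and 1 cell in each library had neither. Of 15 further pDC markers, the median gate cell in either library had 13, with a minimum of 6 in WT and 8 in VISTA-KO.

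Siglech, Ly6d and Ccr9 had gate levels in the same range in the libraries. Siglech, the gene used to choose the cells, was at 2541 (WT) and 2086 CPM (VISTA-KO), where CPM is the group's UMIs of a gene scaled to a fixed total, and at 0 in T cells by definition. Ly6d stood at 2720.5 CPM (2628 to 2815) for WT gate cells and at 2895 CPM (2786 to 3007) for VISTA-KO ones, against 0.278 and 0.314 CPM in T cells. Ccr9 was at 1179.6 CPM (1119 to 1243) and 1075 CPM (1010.4 to 1145), against 1.02 and 1.41 CPM. The lower bounds of the ratio to T cells were 6254 and 5822 for Ly6d and 905 and 607 for Ccr9.

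The promoter windows of Siglech, Ccr9 and Klk1, which were among the 20 genes furthest above T cells, are shown because the pDC factor TCF4 is an E protein and such proteins bind the E-box CAGNTG. Each runs 5′ to 3′ from 250 bases before to 50 bases after a RefSeq transcript start on build GRCm38.p6, on the plus strand, at chr7:55767934-55768233 for Siglech, chr9:123766961-123767260 for Ccr9 and chr7:44225110-44225409 for Klk1. Capitals mark CAGNTG on either strand.
Siglech: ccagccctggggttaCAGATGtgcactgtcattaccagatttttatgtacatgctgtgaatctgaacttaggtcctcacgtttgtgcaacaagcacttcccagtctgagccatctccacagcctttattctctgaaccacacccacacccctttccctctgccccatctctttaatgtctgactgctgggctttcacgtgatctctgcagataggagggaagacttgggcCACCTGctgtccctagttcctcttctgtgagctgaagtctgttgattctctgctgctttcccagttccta
Ccr9: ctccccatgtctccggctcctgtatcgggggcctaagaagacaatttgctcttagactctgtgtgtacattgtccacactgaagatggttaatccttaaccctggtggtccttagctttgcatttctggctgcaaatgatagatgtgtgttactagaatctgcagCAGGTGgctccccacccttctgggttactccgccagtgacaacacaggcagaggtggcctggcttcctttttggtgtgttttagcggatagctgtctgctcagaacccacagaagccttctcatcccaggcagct
Klk1: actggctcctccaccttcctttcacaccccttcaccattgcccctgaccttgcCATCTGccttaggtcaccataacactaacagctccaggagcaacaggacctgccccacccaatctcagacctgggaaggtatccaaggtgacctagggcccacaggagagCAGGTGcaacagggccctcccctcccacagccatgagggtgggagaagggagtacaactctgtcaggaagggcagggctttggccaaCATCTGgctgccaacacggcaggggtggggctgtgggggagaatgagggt
Siglech held 2 matches, Ccr9 held 1 and Klk1 held 3. Of the 20 genes highest over T cells, 14 had a window in the table and 9 of these held CAGNTG. By window, 10 of their 16 (62.5%) held it, 2 of them overlapping Rnase6 windows with the same site, against 51.4% of all 32851 windows. An ETS-IRF composite motif, GGAA and GAAA with 2 bases between them on either strand, was in 0 of the 16 windows and 2.72% of all, and an interferon-type motif, GAAA and GAAA with 2 bases between them, was in 4 of the 16 and 3.44% of all. The 4 windows belonged to 3 genes, since 2 overlapping Rnase6 windows held the same site. These matches are descriptions of sequence and were not tested as binding sites.

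Across the transcriptome, gate cells differed from T cells at many genes, and most of these were called in both libraries. A gene was called when its level differed at least 2-fold on the log2(CPM + 5) scale, among genes reaching 20 CPM in either group. A gene near 0 in either group is measured only where the other group is high. This filter partly fixes the direction of such genes in every list below, so the list counts are descriptions. In WT, 1031 of 6946 genes (14.8%) were higher in the gate and 1038 (14.9%) were lower, and in VISTA-KO 1044 of 7008 (14.9%) were higher and 1012 (14.4%) lower. Of these, 877 higher genes and 831 lower genes were called in both libraries, which was 85.1% and 80.1% of the WT calls and 84.0% and 82.1% of the VISTA-KO calls. The same rule chose the gate in both, and these counts carry no test.

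The 20 genes furthest above T cells in both libraries, T cell receptor and immunoglobulin genes apart, were Ly6d, Siglech, Cox6a2, Klk1, Rnase6, Ccr9, Tyrobp, Ctsl, Mpeg1, Pltp, Pld4, Tcf4, Ctsh, Csf2rb2, Smim5, Bcl11a, Slpi, Ly86, Cd300c and Fcrla. Their log2 ratios lay between 6.01 and 9.09. Cox6a2, a muscle-type subunit of cytochrome c oxidase, was at 1829.8 (WT) and 1901 CPM (VISTA-KO) gate cells, against 0.454 and 0.610 CPM in T cells. Klk1, a tissue kallikrein, was at 1520.1 and 1330.2 CPM against 0.293 and 0.157 CPM. The cathepsins Ctsl and Ctsh, the nuclease Pld4 and the pore-forming Mpeg1 are known from the endolysosome, but no list of endolysosomal genes was tested. Pld4, which degrades single-stranded nucleic acid, was 202-fold (183 to 223) above T cells in WT and 321-fold (280.1 to 369) in VISTA-KO. The 10 genes furthest below T cells were Cd3e, which the rule fixed at 0, and Cd3g, Ccl5, Ms4a4b, Nkg7, Lck, Gzmb, Sh2d2a, Cd2 and Cxcr6, with log2 ratios between -8.26 and -5.86.

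**Figure D2:**
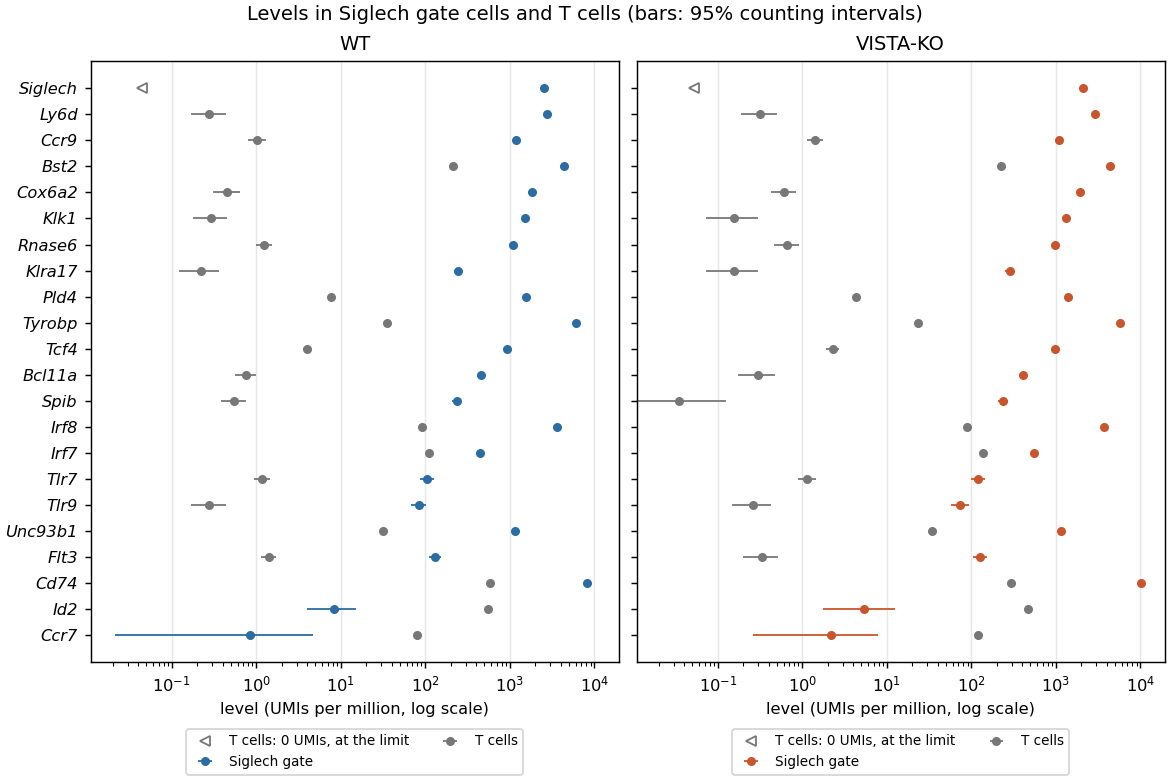
Levels of 22 genes in gate cells (coloured) and T cells (grey) in WT and VISTA-KO, in CPM on a log axis, with 95% exact counting intervals. Open triangles mark Siglech in T cells, placed at the level that 3 counts would give. The pDC genes stand far to the right of the T cell values, while Id2 and Ccr7 lie to the left.

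Most, but not all, transcription factors of pDC identity were higher in the gate. Of 18 on the list, 17 were measured in WT and 16 in VISTA-KO. In each library 10 were called higher, against 14.8% (WT) and 14.9% (VISTA-KO) of all genes. Median log2 ratios were 1.86 and 1.72, against -0.07 and -0.05 over all genes measured. Tcf4, the lineage-determining E protein, was at 923 (WT) and 966 CPM (VISTA-KO), against 3.98 and 2.30 CPM in T cells. Bcl11a, which acts upstream of Tcf4, was at 454 and 412 CPM against 0.747 and 0.297 CPM. Spib, an ETS factor, was at 235 and 237 CPM against 0.542 and 0.0349 CPM. Irf8 was 40.0-fold and 41.8-fold above T cells, and Runx2, which supports pDC exit from bone marrow, 6.24-fold and 5.64-fold. The factors lower in the gate in both libraries were Ets1 and Nfatc2. Id2, the inhibitor of E proteins that directs conventional dendritic and innate lymphoid fates, was at 8.32 and 5.42 CPM against 551 and 468 CPM in T cells. Of 8 measured factors that oppose the pDC fate or direct other lineages, 6 were lower in each library. Over all genes, 14.9% (WT) and 14.4% (VISTA-KO) were lower. The exception called higher was Klf4, at 64.1 and 120.3 CPM against 15.9 and 24.1 CPM.

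The surface and marker list gave 23 of 27 measured genes higher in each library, with 1 lower in WT and 2 in VISTA-KO. Over all genes, 14.8% were higher and 14.9% lower in WT, and 14.9% and 14.4% in VISTA-KO. The list had median log2 ratios of 5.52 in WT and 5.42 in VISTA-KO. Bst2, the PDCA-1 antigen used to sort mouse pDCs, was at 4378 and 4405 CPM and was found in every gate cell. Klra17, a Ly49 family receptor (Ly49Q), was at 246 and 285 CPM against 0.220 and 0.157 CPM. Lair1, a collagen receptor, was 99.5-fold and 101-fold above T cells. Lag3, an inhibitory receptor, was 2.10-fold (1.91 to 2.31) and 3.41-fold (3.08 to 3.75) above tumor T cells. Genes of DAP12 and ITAM signaling, the pathway through which Siglec-H acts, gave 11 of 14 measured higher and 1 lower in each library, against the same shares over all genes. Of this pathway, the adaptor gene Tyrobp, which encodes DAP12, was at 5982 and 5784 CPM, and the B cell linker Blnk was at 315 and 276 CPM against 0.498 and 0.454 CPM. The gene lower was Lcp2, the SLP-76 adaptor of T cells, at 19.1 and 10.8 CPM against 248 and 256 CPM.

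Of 25 measured genes of nucleic acid sensing, 13 were higher and 2 lower in each library, against 14.8% and 14.9% of all genes in WT and 14.9% and 14.4% in VISTA-KO, with median log2 ratios of 1.48 and 1.44. Tlr7, the receptor for single-stranded RNA and the target of the vaccine adjuvant R848, was at 105 (WT) and 120.3 CPM (VISTA-KO) against 1.17 and 1.15 CPM. Tlr9, the receptor for CpG DNA, was at 84.1 and 73.7 CPM against 0.278 and 0.262 CPM. Unc93b1, the chaperone that carries both receptors to endosomes, was 35.6-fold and 34.4-fold above T cells, and the endosomal transporter Slc15a4 11.0-fold and 11.3-fold. Irf7, the master regulator of type I interferon genes, was 4.01-fold (3.66 to 4.37) and 4.05-fold (3.69 to 4.43) higher. The lower genes were Ddx58, which encodes the cytosolic RNA sensor RIG-I, and the phospholipase Pld3. Tlr3 was at 0 UMIs in the gate of both libraries, and Tlr4 and Cgas had 1 and 3 UMIs in WT and 0 in VISTA-KO.

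No transcript of the type I and III interferons was counted in any gate cell. All 19 genes of the list, 14 of the Ifna family together with Ifnb1, Ifne, Ifnk, Ifnl2 and Ifnl3, were at 0 UMIs in 146 WT and 103 VISTA-KO cells. Taking 3 counts as the limit that a count of 0 allows, each gene could have had a UMI in up to 2.05% of WT and 2.91% of VISTA-KO gate cells, and a level of up to 2.50 and 3.25 CPM. This limits detection of a UMI and not the share of cells expressing the gene. Ifna genes are near-identical copies, and reads that match several of them are not counted by the software used, so a shared signal could be missed. Interferon-stimulated genes were called in both directions. In WT 5 of 23 measured genes were higher and 9 lower, and in VISTA-KO 5 of 24 were higher and 6 lower, against 14.8% and 14.9% of all genes in WT and 14.9% and 14.4% in VISTA-KO. The shares higher were near that background. Oasl2 was 8.44-fold and 9.63-fold above T cells and Stat2 5.22-fold and 4.11-fold, while Zbp1, a Z-nucleic acid sensor, was at 9.99 and 33.6 CPM against 164 and 189 CPM.

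Of 8 measured cytokines and chemokines known from pDCs, 2 were higher and 4 lower in each library, against 14.8% and 14.9% of all genes in WT and 14.9% and 14.4% in VISTA-KO, with median log2 ratios of -0.73 and -1.22. The count higher was near that background. The higher ones were Il12a and Ccl4. Il12a, the p35 subunit of interleukin-12, was at 55.8 (WT) and 28.2 CPM (VISTA-KO) against 0.132 and 0 CPM, and its partner Il12b was at 0 UMIs in both gates. Ccl4, an inflammatory chemokine, was 2.20-fold (2.11 to 2.30) and 3.17-fold (3.07 to 3.28) above T cells. These intervals leave out its uneven spread over gate cells, given below. Ccl5 and Cxcl10 were lower, and Tnf was at 41.6 and 42.3 CPM against 47.6 and 88.6 CPM, with 42.0% and 33.3% of its gate UMIs in 1 cell of each library. The cytokines Il6 and Il10 were at 0 UMIs in both gates. Of the tolerogenic factors, Ido1 was at 3.33 and 4.34 CPM, from 4 UMIs in each library, Gzmb was below 1% of the T cell level (0.637% and 0.844%), and Nos2 and Nt5e were at 0 UMIs. Tgfb1 was 1.72-fold and 1.90-fold above T cells.

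Antigen presentation genes split by class. All 10 measured MHC class II presentation genes were higher in each library, against 14.8% of all genes in WT and 14.9% in VISTA-KO. Their median log2 ratios were 3.42 in WT and 4.18 in VISTA-KO. Cd74, the invariant chain, was at 8236 and 10027 CPM, and H2-Aa at 2252 and 2627 CPM. T cells held 579 and 292 CPM of Cd74 and 129.7 and 56.6 CPM of H2-Aa, so the larger VISTA-KO ratios came with lower T cell values. Of 9 MHC class I presentation genes none was higher and 2, Nlrc5 and Tap2, were lower in each library, against 14.9% of all genes lower in WT and 14.4% in VISTA-KO. The costimulatory ligands were sparse: Cd80 was at 1 and 0 UMIs and Cd86 at 11 UMIs in each gate, whereas Cd40 was 7.55-fold (4.90 to 11.2) and 16.9-fold (9.59 to 28.3) above T cells.

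Some genes of the secretory pathway were called higher in the gate. In each library 12 of 22 measured genes were higher, none was lower and all 22 had log2 ratios above 0. Over all genes, 14.8% were higher in WT and 14.9% in VISTA-KO. Xbp1, the transcription factor of the secretory program, was at 648 and 647 CPM against 65.2 and 79.6 CPM, and Herpud1, a protein of endoplasmic reticulum-associated degradation, was 8.99-fold and 6.27-fold higher. Heat shock genes had 0 of 11 higher in either library, with 4 lower in WT and 6 in VISTA-KO, against 14.9% and 14.4% of all genes lower. Cell cycle genes had 14 of 14 measured genes lower in WT and 12 of 13 in VISTA-KO, against 14.9% and 14.4% of all genes. Only 2 of them reached 20 CPM in either gate. The others were measured through T cells alone and could not be called higher, so their count is a description. Mki67 had 10 and 5 UMIs in all gate cells of the 2 libraries. Of 14 measured chemokine and homing receptors in WT and 13 in VISTA-KO, 2 were higher in each library, Ccr9 among them, and 6 and 5 were lower, against 14.8% higher and 14.9% lower over all genes in WT and 14.9% and 14.4% in VISTA-KO, so the count higher was at the background. The lower ones in both included Cxcr3, Cxcr6 and the lymph node homing receptor Ccr7, the last with 1 UMI in WT and 2 in VISTA-KO gate cells against 79.9 and 120.5 CPM in T cells. Of 17 measured cytokine receptor and survival genes, 5 were higher and 6 lower in WT, and 4 and 6 in VISTA-KO, against the same shares over all genes. Flt3, Csf2rb, Csf2ra and Ifnar2 were higher in both libraries, and the interleukin-2 receptor chains Il2ra, Il2rb and Il2rg and the survival genes Bcl2, Bcl2l1 and Bcl2l11 were lower in both. Csf2rb and Csf2rb2 are close paralogs, whose reads may be split.

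Of 20 genes shared with the B lineage, 12 did not reach 20 CPM in either group. The other 8 were higher in each library, against 14.8% of all genes in WT and 14.9% in VISTA-KO. All of them but Ighm and Igkc were under 20 CPM in T cells, so that they were measured through the gate alone. The 8 genes were Ly6d, Blnk, Dntt, Cd79b, Ighm, Igkc, Iglc2 and Iglc3. Iglc3, a lambda light chain constant gene, was at 752 (WT) and 701 CPM (VISTA-KO) against 0.0878 and 0.297 CPM, in 78.8% and 74.8% of gate cells. Iglc2 and Iglc3 are near-identical, so their shares are uncertain. Igkc was at 303 and 281 CPM in 30.1% and 35.0% of cells. Dntt, terminal transferase, was at 82.4 and 58.5 CPM, from 99 and 54 UMIs, while Rag1 had 0 and 1 UMI. The B cell markers Ms4a1, Pax5 and Cd79a were at 0 UMIs in both gates.

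Gate cells carried RNA of the coreceptors on which the suspension was sorted, and little other T cell RNA. Cd8a stood at 292 CPM (262 to 324) for WT and at 271 CPM (239 to 307) for VISTA-KO, which was 41.6% and 46.8% of the T cell level. Cd8b1 was at 524 and 388 CPM, or 51.1% and 48.8%. The 22 other genes of the T cell list, without Cd3e, had a median of 1.33% of the T cell level in WT and 0.572% in VISTA-KO, with a maximum of 5.71% for Lat in WT and 3.93% for Cd28 in VISTA-KO. Summed, these 22 genes came to 167 and 94.3 CPM in the gate against 12219.9 and 11962 CPM in T cells. Lck was at 0.702% and 0.428%, Cd3g at 0.271% and 0.0738%, and Trac had 0 and 1 UMI. The coreceptors thus stood apart from the rest of the T cell genes in both libraries. The T cell list as a whole had 24 of 25 genes lower in WT, with Cd8b1 just inside 2-fold, and 25 of 25 in VISTA-KO. Over all genes, 14.9% (WT) and 14.4% (VISTA-KO) were lower. Each list count included Cd3e, which the selection fixed, and the most abundant gene of the list in the gate was Cd8b1.

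Cd4 differed in direction between the libraries. WT gate cells held 159.8 CPM (138 to 184) and WT T cells 99.2 CPM, whereas VISTA-KO gate cells held 128 CPM (106 to 153) and VISTA-KO T cells 186 CPM. The gate levels overlapped in their intervals and the T cell levels did not. At 2000 UMIs a cell, a Cd4 UMI was present in 27.4% (20.3% to 35.4%) of gate cells for WT and in 20.6% (13.2% to 29.7%) for VISTA-KO, against 16.3% and 28.6% of T cells. The shares with a Cd8a UMI were 25.3% and 25.5% of gate cells and 51.7% and 39.5% of T cells, and those with a Cd8b1 UMI were 37.0% and 34.3% against 59.1% and 45.0%. Unthinned, 136 of 146 WT and 90 of 103 VISTA-KO gate cells had at least 1 UMI of Cd4, Cd8a or Cd8b1. At 2000 UMIs, Cd4 occurred together with a Cd8 chain in 17.1% (11.4% to 24.2%) of gate cells for WT and 6.86% (2.80% to 13.6%) for VISTA-KO, against 3.46% and 3.66% of T cells.

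**Figure D3:**
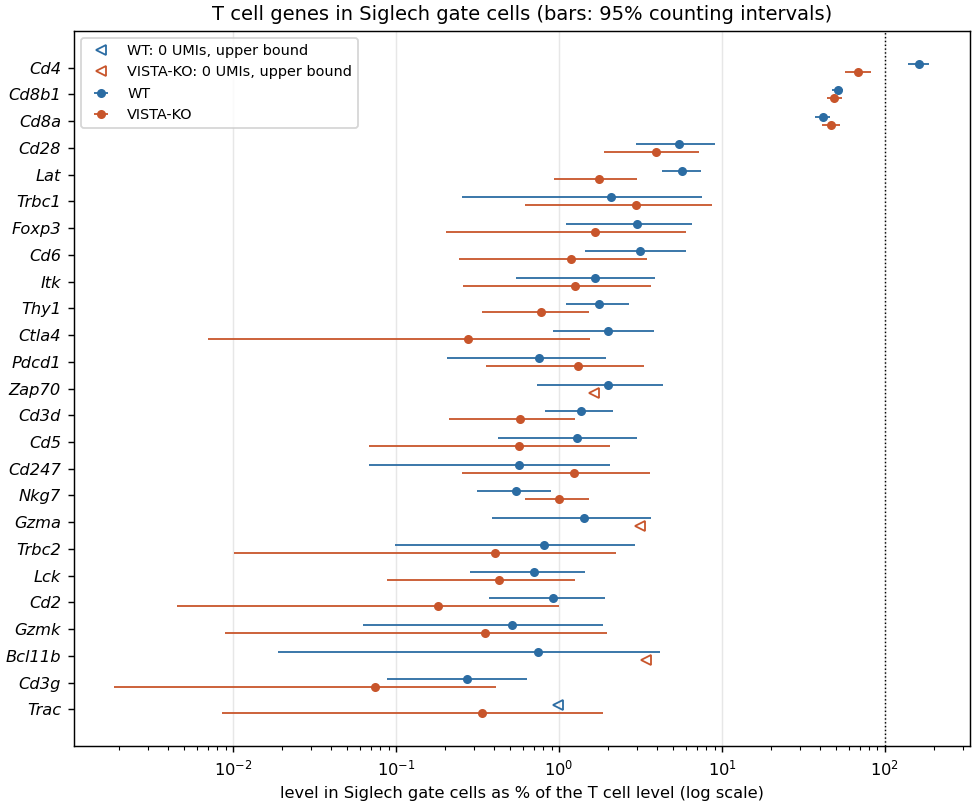
Level of T cell genes in gate cells as a percentage of their level in T cells, on a log axis, in WT (blue) and VISTA-KO (orange) with 95% exact counting intervals; open triangles are upper bounds for genes with 0 UMIs. Cd4, Cd8b1 and Cd8a lie between 41.6% and 161% of the T cell level, and all other genes at 5.71% or below.

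The receptor libraries, which the gate did not use, separated the same groups. A productive T cell receptor contig was assigned to 2 of 146 WT gate cells (1.37%, 0.166% to 4.86%) and to 0 of 103 VISTA-KO gate cells (exact binomial upper limit 3.52%). In T cells the shares were 77.7% and 87.0%.

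RNA of other cell types was checked as whole lists. Macrophage genes summed to 22.5 (WT) and 30.4 CPM (VISTA-KO) gate cells, below the 134 and 117 CPM in T cells, with Apoe the most abundant and Adgre1 and Mrc1 at 0. C1qa, C1qb and Lyz2 had at most 3 UMIs in a gate. The NK cell genes Ncr1, Klra8 and Klrb1c were at 0 UMIs, and the neutrophil list and the erythroid and platelet list each summed to 1 UMI in WT and 0 in VISTA-KO. The melanoma genes were at 0 UMIs in WT and summed to 10.8 CPM in VISTA-KO, against 37.4 and 166 CPM in T cells. Of the genes of conventional dendritic cells, Clec9a and Wdfy4 were higher than in T cells while Xcr1 and Batf3 were at 0 UMIs, and Clec10a, Sirpa, Cd209a and Mgl2 were higher while Itgam had 1 UMI in each gate. Clec10a was 132-fold and 204-fold above T cells and was found in 85.6% and 84.5% of gate cells. Of the transitional dendritic cell genes Cd209a and Itgax were higher, Lyz2 and Crip1 lower, and Axl had 1 and 7 UMIs. A comparison with other myeloid cells was not made, since 4 cells in each library met its C1qa rule.

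Vsir itself was measured in both groups of cells. In T cells its level was 114 (WT) and 115 CPM (VISTA-KO), so the RNA count does not separate the genotypes in the cells where Cre is expected to act. Where the counted reads lie relative to the deleted part is not given in the sources used here. In WT gate cells Vsir stood at 70.8 CPM (56.5 to 87.5) from 85 UMIs, and in VISTA-KO gate cells at 39.0 CPM (27.3 to 54.0) from 36 UMIs. The VISTA-KO over WT ratio was 0.552 (0.363 to 0.824). It was found in 39.7% and 28.2% of gate cells. In gate cells with a Cd4 UMI, Vsir stood at 66.9 CPM (48.8 to 89.5) for WT and at 37.1 CPM (21.2 to 60.3) for VISTA-KO, and those without one held 75.7 CPM (54.1 to 103) and 40.7 CPM (24.9 to 62.9). The VISTA-KO value was the lower one with and without Cd4 RNA. The intervals overlapped within each genotype and also, with and without Cd4 RNA, between the genotypes. Of the reported partners, Selplg, which encodes PSGL-1, was at 1707 and 1452 CPM, Lgals9 at 122 and 145 CPM, and Lrig1 had 0 and 1 UMI.

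Few genes differed 2-fold between the gate cells of the genotypes. Of 6237 genes measured, 39 (0.625%) were at least 2-fold higher in VISTA-KO gate cells and 31 (0.497%) at least 2-fold lower, and the median size of the log2 ratio was 0.19. These counts were 74 and 51 with a pseudocount of 1 CPM, 6 and 4 with 20 CPM, and 98 and 110 with no minimum level. The same quantity in T cells, with far more cells, was 0.08. No gene of the pDC transcription factor list (17 measured), the surface and marker list (27) or the MHC class II list (10) was called. With 0.625% and 0.497% of all genes called, 0 in lists of this size is near the background. Some other lists held called genes, among them interferon-stimulated genes (2 of 20) and nucleic acid sensing (1 of 24). Among genes at 50 CPM or more in 1 library, the largest positive ratios included Grasp, a scaffold for receptor trafficking, at 42.5 (WT) and 139.9 CPM (VISTA-KO), with a ratio of 3.29 (2.36 to 4.65). Tent5c, a poly(A) polymerase, was at 46.6 and 126 CPM, and Rgs1, a brake on chemokine receptor signaling, at 184 and 401 CPM. Clec9a, the receptor for actin of dead cells, was at 73.3 and 156 CPM, a ratio of 2.13 (1.62 to 2.81), and was found in 34.2% and 60.2% of gate cells. The other genes of the 12 highest were Nr4a1, Nfkbid, Ccl4, 5430427O19Rik, D13Ertd608e, H1f0, Rnf146 and Nedd9, of which Nfkbid, Rnf146 and Nedd9 were under 2-fold on the log2(CPM + 5) scale.

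Several of these ratios went the same way in T cells. Nr4a1, an orphan nuclear receptor induced by antigen receptor signals, was at 109 (WT) and 242 CPM (VISTA-KO) gate cells, and its ratio was 2.22 (1.78 to 2.77) in the gate and 3.68 in T cells. Nfkbid had ratios of 1.91 and 2.59, and Ccl4 of 2.05 (1.95 to 2.16) and 1.42. For the list of immediate-early and NR4A genes, 14 of 16 measured had gate ratios above 0, with a median log2 ratio of 0.40 in the gate and 0.53 in T cells over the same genes. This pattern ran through both cell types of a library, and with 1 library per genotype the handling of the suspension and the genotype cannot be told apart. T cells with a Cd4 UMI and no Cd8a or Cd8b1 UMI were 18.9% in WT and 33.6% in VISTA-KO. The part of this make-up in the T cell ratios was not tested.

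With the same minimum, the largest negative ratios were led by Ddit4, an inhibitor of mTOR signaling induced by stress and glucocorticoids. In WT gate cells it stood at 132 CPM from 159 UMIs in 41.1% of cells, and in VISTA-KO at 18.4 CPM from 17 UMIs in 10.7% of cells. The ratio was 0.139 (0.0791 to 0.230) in the gate and 0.676 in T cells. Hspa1a, an inducible HSP70, was at 71.6 and 17.3 CPM, but 1 WT cell held 23.3% and 1 VISTA-KO cell 43.8% of its UMIs. The cathepsin Ctsw was at 62.4 and 22.8 CPM, the transporter Slco3a1 at 54.9 and 24.9 CPM, and the endoplasmic reticulum protein Wfs1 at 92.4 and 43.4 CPM. Gm42031 had ratios of 0.230 in the gate and 0.142 in T cells. Gm4316, Tia1, Guk1, mt-Atp8, Tmem176b and Pqlc3 completed the 12 lowest, of which mt-Atp8, Tmem176b and Pqlc3 were under 2-fold on the log2(CPM + 5) scale.

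**Figure D4:**
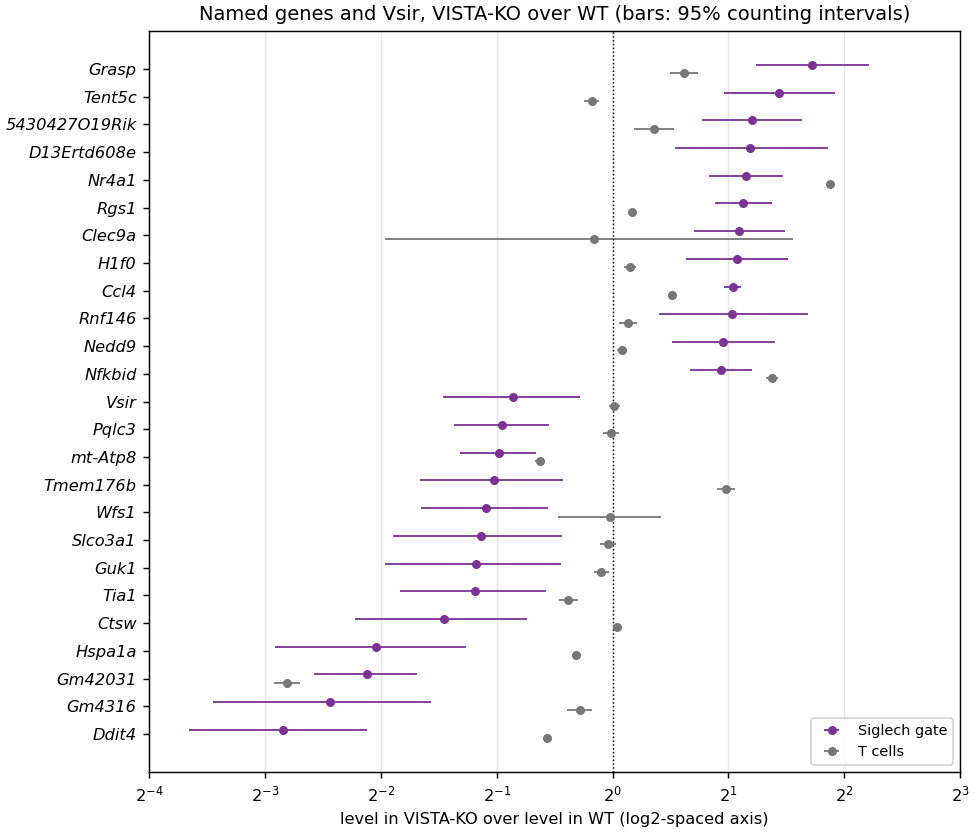
Ratio of the VISTA-KO to the WT level for the 12 highest and 12 lowest genes and Vsir, in gate cells (purple) and T cells (grey), on a log2-spaced axis with 95% exact counting intervals; a T cell point is left out where a library had 3 or fewer UMIs. Ddit4 stands lowest at 0.139 and Grasp highest at 3.29 in the gate, and Tmem176b lies on opposite sides in the gate and in T cells.

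Several lists had most of their VISTA-KO over WT ratios on one side of 0. For interferon-stimulated genes 17 of 20 measured had VISTA-KO over WT ratios above 0 in the gate. The median log2 ratio was 0.36, against 0.13 in T cells over the same genes. Of the 20, 2 were called higher, against 0.625% of all genes. The called genes were Zbp1 (9.99 and 33.6 CPM) and Ifit2 (12.5 and 33.6 CPM), each from 31 UMIs in VISTA-KO. Both reached the minimum of 20 CPM through the VISTA-KO gate alone, so their count is a description. For MHC class II, 8 of 10 had ratios above 0 in the gate, with a median log2 ratio of 0.20, and the same genes had a median of -0.52 in T cells. The MHC class I list had 8 of 9 above 0, with a median of 0.25 against 0.07 in T cells. On the other side, 5 of 22 secretory pathway genes, 1 of 10 heat shock genes and 0 of 4 genes of conventional type 2 dendritic cells had ratios above 0, with medians of -0.10, -0.13 and -0.35. The same genes had medians of 0.01, -0.05 and -0.44 in T cells. Over all genes the median was -0.01.

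By the ratio of variance to mean, a limited set of genes stood out among gate cells. At 2000 UMIs a cell, the ratio of variance to mean had a median of 1.07 in both libraries over 1458 genes, and pure counting would give a value near 1. Ccl4 ranked second, with ratios of 18.2 in WT and 12.1 in VISTA-KO. Its median was 0 UMIs in WT and 5 in VISTA-KO, its maximum was 65 and 59 UMIs, and 49.3% and 78.4% of cells had a UMI. Cd74, Klk1, Ly6c2, Ifitm2, Actb, Ly6d, H2-Aa, Malat1, Ly6a and Igkc also ranked among the first 12. At the same relative spread this ratio is larger for an abundant gene, such as Actb with a mean of 22.3 (WT) and 23.3 UMIs (VISTA-KO). Variation in low genes can therefore go unseen. Klk1 was found in 61.6% and 52.9% of thinned cells, with a maximum of 28 and 18 UMIs, and Igkc in 15.8% and 21.6%, with a maximum of 10 and 9 UMIs. Cd8a ranked 22nd, with ratios of 2.80 and 3.09, and reached 7 and 9 UMIs in single cells. The highest rank belonged to Gm42418, which overlaps ribosomal RNA sequence, so its count may reflect residual rRNA.

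**Figure D5:**
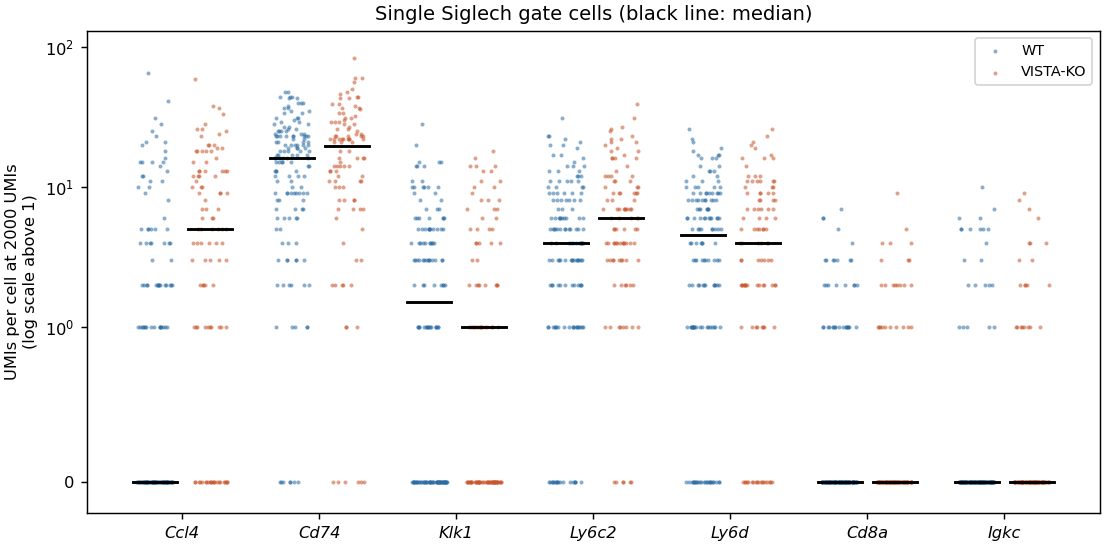
UMIs of 7 genes in single gate cells thinned to 2000 UMIs (146 WT and 102 VISTA-KO cells), on a log scale above 1, with horizontal jitter and the median as a black line. Ccl4 runs from 0 to 65 UMIs, with a median of 0 in WT and 5 in VISTA-KO, while Cd8a and Igkc are at 0 in most cells.

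Gate cells with few Siglech UMIs also held less of several other pDC genes. In WT, the 127 cells with over 10 Siglech UMIs had 2962 CPM of Ly6d and 1288 CPM of Ccr9, the 12 cells with 6 to 10 had 1669 and 553 CPM, and the 6 cells with 3 to 5 had 40.2 and 221 CPM. In VISTA-KO the same classes held 83, 15 and 5 cells, with 3259.7, 1836 and 291 CPM of Ly6d and 1163, 838 and 403 CPM of Ccr9. Tcf4 did not follow this order, at 916, 840.3 and 1106 CPM in WT and 965, 977 and 939.5 CPM in VISTA-KO. Between the class over 10 and the class of 3 to 5, Irf8 was at 3838 and 1085.6 CPM in WT and 3766 and 2729 CPM in VISTA-KO, Klk1 at 1654 and 120.6 CPM and 1560.4 and 89.5 CPM, and Cox6a2 at 2002 and 462 CPM and 2164 and 44.7 CPM. The class of 3 to 5 held 6 WT and 5 VISTA-KO cells. Outside these classes lay 1 WT gate cell with 2 Siglech UMIs, at 173 CPM of Ly6d, 173 CPM of Ccr9, 1386 CPM of Tcf4 and 0 CPM of Irf8.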

How the data were processed

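Single-cell gene expression and T cell receptor libraries were made from 1 pool of sorted tumor-infiltrating cells per genotype. The authors deposited unnormalised UMI counts for each gene in each cell (32285 genes, 10337 WT and 10085 VISTA-KO barcodes) and tables of assembled receptor contigs with read and UMI counts. Per the file headers and the methods these were made with Cell Ranger on GRCm38 (mm10). The labels name a 3′ chemistry and the methods a 5′ kit, so which transcript end was counted is not settled here. Ambient RNA was not removed and no doublet caller was run; cells with Siglech and Cd3e together were left out by the rule.

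Counts were summed over gate cells and over T cells of each library and divided by the total to give CPM. Ratios were taken on log2(CPM + 5). Exact Poisson and Clopper-Pearson intervals (95%) were computed with scipy 1.17.1 in Python 3.11.15, and cells were thinned to 2000 UMIs for shares (1 VISTA-KO gate cell, 524 WT and 433 VISTA-KO T cells were shallower). PCR and capture are not covered by the intervals. Barcodes with a productive contig in the receptor table counted as contig-bearing. The calling procedure was tested on simulated data.

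Named genes were those of 30 lists (386 genes, 3 not in the tables), the 20 highest and 10 lowest over T cells in both libraries among genes at 50 CPM or more, the 12 highest and 12 lowest between genotypes at 50 CPM or more in 1 library, and Vsir, Siglech, Ly6d, Ccr9, Cd4 and Cd3e. The members and lists were chosen with earlier results of these data known. Promoter windows came from RefSeq (GRCm38.p6). Some genes of the lists are counted in list totals and are not reported here by name.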

Additional observations from a re-analysis of the deposited data

Results flagged for a closer look

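The results below were taken up because an effect had opposite directions in 2 groups, each by at least 0.5 on the log2(CPM + 5) scale. With 1 library per genotype the difference was not tested in any of them.

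For Cd4, the gate over T cell log2 ratio was 0.66 in WT and -0.52 in VISTA-KO. For Tmem176b, a membrane protein of dendritic cells and some T cells, the same ratio was 1.05 in WT and -0.77 in VISTA-KO. Its VISTA-KO over WT log2 ratio was -0.93 in gate cells and 0.88 in T cells, and 1 WT gate cell held 34.1% of its 85 UMIs. With Siglech at 3 or more UMIs the gate value was -0.39, short of 0.5. For Egr1, an immediate-early transcription factor, the VISTA-KO over WT log2 ratio was -1.10 in gate cells, from 18 UMIs in WT and 4 in VISTA-KO, and 0.55 in T cells. A single cell held 77.8% of the WT UMIs of Egr1.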

How the results depend on the processing

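No paired analysis was possible because each genotype had 1 gene expression library. The 28 genes named for their ratio to T cells, without Siglech and Cd3e, whose values the selection fixed, kept their direction and a difference of at least 2-fold in 364 of 364 values per library. The genes named between genotypes and Vsir kept their direction in 300 of 300 values, and 198 of 216 values of those at 2-fold or more stayed there. Apart from Vsir, both sets were chosen for the largest ratios in these same counts. Keeping their direction was thus largely fixed in advance, and so was keeping 2-fold for the genes named against T cells. The smallest Tmem176b log2 ratio was -0.39, with Siglech at 3 or more UMIs, and the smallest for Hspa1a was -1.11, without gate cells holding T cell RNA or a contig. Without the cell richest in the gene, an alternative chosen after seeing the data, they were -0.64 and -2.02.

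Counts of genes depended on the thresholds. For VISTA-KO over WT in the gate, genes higher and lower were 74 and 51 with a pseudocount of 1 CPM, 6 and 4 with 20 CPM, 98 and 110 with no minimum level, 9 and 9 with a minimum of 50 CPM, and 271 and 224 at 1.5-fold; 51 and 49 when the total left out mitochondrial, ribosomal and receptor genes. For gate over T cells, genes lower were 1567 (WT) and 1571 (VISTA-KO) with no minimum. With a minimum of 50 CPM, 599 were lower in WT, and 695 were higher and 606 lower in VISTA-KO. At 1.5-fold, 1556 were higher and 1688 lower in WT, and 1597 and 1662 in VISTA-KO.

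Without gate cells holding T cell RNA or a contig, the gate share was 1.20% in WT and 0.935% in VISTA-KO. T cells with a contig were 80.4% in WT without cells over 20000 UMIs and 64.0% (WT) and 77.6% (VISTA-KO) among T cells of gate depth; with T cells defined by a TRB contig they were 100% and 100% by construction. Shares of gate cells with a UMI depended on depth. At 4000 UMIs they were, in WT, 89.7% for Ly6d, 93.4% for Ccr9, 39.7% for Cd4, 35.3% for Cd8a and 52.2% for Cd8b1, and unthinned 90.4%, 97.3%, 56.8%, 44.5% and 62.3%. In VISTA-KO they were 91.1% for Ccr9, 32.7% for Cd4, 37.6% for Cd8a and 45.5% for Cd8b1 at 4000 UMIs, and unthinned 91.3% for Ly6d, 98.1% for Ccr9, 46.6% for Cd4, 46.6% for Cd8a and 57.3% for Cd8b1. The gate held 146 and 103 cells, which limits the precision of low genes.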
